A study of Mus musculus with 13 samples.

Results

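The comparison described here is between mouse embryonic stem (ES) cells that expressed dCas9-OGA and ES cells that expressed dCas9-OGA-D242A, called D242A below, across genes. OGA is a hydrolase that removes O-linked N-acetylglucosamine (O-GlcNAc) from proteins, here the enzyme of a Bacteroides species, and D242A is a substitution that leaves it catalytically dead. Genes were compared when they had at least 100 counts summed over both libraries, which held for 12722 of the 49671 genes counted. Each population was sequenced in 1 library, so the differences are descriptive and were not tested.

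In the ES line AinV15, ROSA26 supplies the reverse tetracycline transactivator, and cre/lox recombination puts a cassette under doxycycline control. Both populations derive from this line. Each carries a fusion of OGA to dCas9, a Cas9 that binds DNA without cutting it, together with 4 guide RNAs that match the U3 promoter of IAP retrotransposons. Recombinant cells were selected with G418, and the transgene was induced with 1 µg/mL doxycycline for 48 h. Cells were grown on gelatin with serum and leukemia inhibitory factor (LIF). Whether either population was 1 clone is not given in the sources used here. The same count table has 1 column named WT and 1 named Dnmt1, which no listed sample could be tied to and which were taken as single untreated libraries of those cells. The study also lists 3 replicate libraries each of WT and Dnmt1-null cells, of which the WT replicates were used here. The untreated WT and Dnmt1-null cells are not described as carrying the cassette.

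ES cells grown in serum and LIF are a mixture that moves between a naive state, close to the preimplantation epiblast, and a formative or primed state, close to the epiblast after implantation. Transcription factors such as Tfcp2l1, Klf5 and Tbx3 hold the naive state, while Otx2, Zic2 and the DNA methyltransferases Dnmt3a and Dnmt3b mark its exit. O-GlcNAc is placed on nuclear and cytoplasmic proteins by the enzyme Ogt and removed by the hydrolase encoded by Mgea5.

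Gene counts came to 24955180 in dCas9-OGA, 24828078 in D242A, 25097983 in the WT library and 18693531 in the Dnmt1-null library. Values below are counts per 1e6 gene counts of the library (cpm), and ratios are on the log2(cpm + 0.5) scale, which understates the difference of genes with few reads. The signals of the WT replicates summed to 959084, 963792 and 964265 over genes, so their scale is near that of cpm, although they were processed apart from the joint table. Intervals are exact binomial 95% intervals of the ratio without the added 0.5, and they cover counting error only. The number of genes with at least 1 count was 21504 in dCas9-OGA and 22084 in D242A, and the 10 genes with the most counts took 4.07% and 4.68% of all counts.

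Several libraries stood apart in ways that touch the results. Genes on chromosome Y had 129 counts in dCas9-OGA and 243 in the WT library, against 3667 in D242A and 3114 in Dnmt1-null. The dCas9-OGA library and the single WT library were thus both low in Y-linked transcripts. The WT replicates were not, since the Y-linked helicase gene Ddx3y had signals of 113, 102 and 106 there, against 2.19 cpm in the single WT library. The part of this in other differences between the populations was not tested. The WT library also held more transcripts of 2-cell-like cells, a rare ES cell state that resembles the 2-cell embryo. The 12 genes found of that list summed to 58.1 cpm in WT, 2.38 cpm in D242A, 1.82 cpm in Dnmt1-null and 0.681 cpm in dCas9-OGA. In the WT replicates Zscan4c, a gene of that list, had signals of 145, 135 and 136, against 4.02 cpm in the single WT library. None of the listed genes reached 100 counts over the OGA and D242A libraries, and Tcstv1 and Tdpoz4 had no counts in either. The WT replicates also stood apart in fibroblast genes, with Col1a1 signals of 524, 654 and 440 against 14.5 cpm in the single WT library and 9.98 and 22.9 cpm in dCas9-OGA and D242A. The single WT library was also low in Mki67 and Atrx, named after their values were seen. Mki67 was at 14.8 cpm there, 385 in dCas9-OGA, 240 in D242A and 168 in Dnmt1-null, with WT replicate signals of 184, 183 and 216. Atrx was at 27.5, 193, 115 and 161 cpm, with replicate signals of 136, 124 and 146. The part of this in medians against WT was not tested. Below, WT without further words is the single library, and a level near it does not show that a population was near WT cells.

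Whole chromosomes were shifted between the populations. The median log2 ratio of dCas9-OGA to D242A was 0.32 over 750 genes of chromosome 1, −0.46 over 693 genes of chromosome 8 and −0.44 over 1077 genes of chromosome 11, against 0.02 over all genes compared. Beyond position 80 Mb of chromosome 14, a boundary chosen after the values were seen, the median was 1.59 over 54 genes, while the other 371 genes of that chromosome had a median of 0.08. For each gene named below the chromosome is given where it is one of these, since the part of these shifts in a single gene's ratio was not tested.

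Of the 12722 genes, 611 (4.80%) were higher in dCas9-OGA by 2-fold or more and 930 (7.31%) were lower by as much, or 12.1% in either direction. The counting interval lay wholly beyond 2-fold for 424 of the higher and 662 of the lower genes. At least 8-fold differences were seen for 18 higher and 39 lower genes. The middle of the distribution was narrow, with quartiles of −0.34 and 0.33. Protein-coding genes made up 571 of the higher and 892 of the lower genes. For scale, 1 to 2 genes differed 2-fold between pairs of WT replicates (0.00711% of 14056 genes for replicates 1 and 2, 0.0146% of 13717 for replicates 1 and 3, and 0.00715% of 13979 for replicates 2 and 3). Those pairs do not measure the spread between separate cultures, since the single WT library itself was far from the replicates in some genes.

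**Figure D1:**
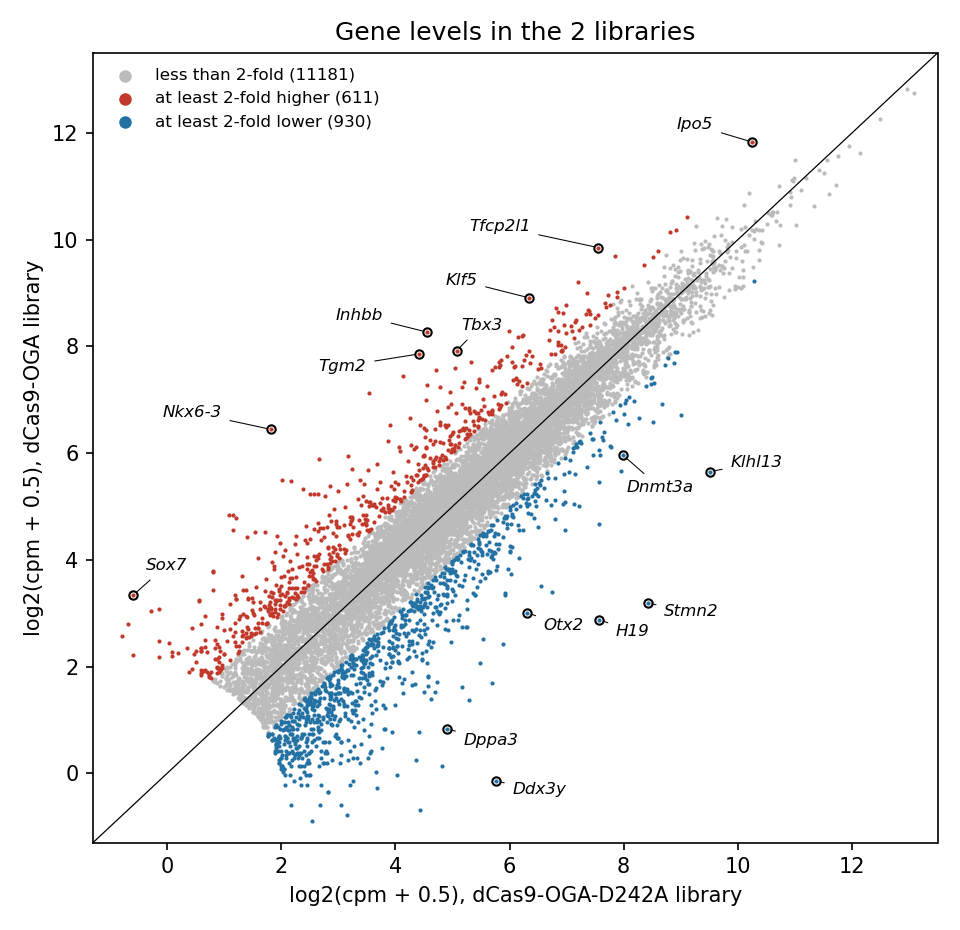
Each point is 1 of the 12722 genes compared, placed by its level in the dCas9-OGA-D242A library (horizontal axis) and in the dCas9-OGA library (vertical axis), both as log2(cpm + 0.5), with the line of equal levels drawn. The 611 genes at least 2-fold higher lie above the line and the 930 at least 2-fold lower below it, with some of the genes named in the text labelled.

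The chromosomes contributed unequally to these counts. Chromosome 14 had 62 higher genes of 425 compared, of which 39 lay among the 54 genes beyond 80 Mb. On chromosome 1, 79 of 750 genes (10.5%) were higher and 29 lower. Chromosomes 8 and 11 together showed the opposite, with 105 of 693 genes (15.2%) and 147 of 1077 genes (13.6%) lower, and 10 and 21 higher. Over the other chromosomes, leaving out 1, 8, 11, 14 and Y, 439 of 9773 genes (4.49%) were higher and 621 (6.35%) lower. GC content and transcript length varied with the ratio to a smaller degree. The median log2 ratio was 0.08 in the 20% of genes with the lowest GC and −0.08 in the 20% with the highest, and −0.04 and 0.12 in the 20% with the shortest and the longest transcripts.

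The labels call both populations ES cells, and markers of that state were present in each. Pou5f1, the POU factor Oct4, stood at 1338 cpm in dCas9-OGA and 887 cpm in D242A. Its HMG-box partner Sox2 was at 748 and 755 cpm, and Sall4, a zinc finger factor of the same network, at 269 and 251 cpm. The nuclear receptor Esrrb was at 1079 and 765 cpm, and Zfp42 (Rex1) on chromosome 8 at 418 and 495 cpm. All these markers were thus within 2-fold between the populations, while Nanog, at 386 and 186 cpm, had a log2 ratio of 1.05.

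Of the 3 genes chosen to mark the contrast, Tfcp2l1 was higher and Dnmt3a and H19 were lower in dCas9-OGA. Tfcp2l1 (ENSMUSG00000026380, chromosome 1 from 118627945 to 118685168 of GRCm38), a transcription factor downstream of LIF and STAT3, had 23072 counts in dCas9-OGA, 4638 in D242A, 4982 in WT and 2426 in Dnmt1-null. This was 925 cpm against 187, 198 and 130 cpm, a 4.94-fold difference between the first pair (log2 ratio 2.30, interval 2.26 to 2.35). The dCas9-OGA library therefore stood alone, above 3 libraries of similar level, and its ratio was 1.98 above the median of chromosome 1. In the 3 WT replicates, Tfcp2l1 had signals of 367, 376 and 397, above the single WT library and below dCas9-OGA.

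Dnmt3a (ENSMUSG00000020661, chromosome 12 from 3806007 to 3914443), a de novo DNA methyltransferase, had 1548 counts in dCas9-OGA, 6266 in D242A, 6070 in WT and 6332 in Dnmt1-null. This was 62.0 cpm against 252 in D242A and 339 in Dnmt1-null, a 4.04-fold lower level than in D242A (log2 ratio −2.02, interval −2.11 to −1.94). Again dCas9-OGA stood apart from the other libraries. The signal in the WT replicates was 158, 167 and 171.

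H19 (ENSMUSG00000000031, chromosome 7 from 142575529 to 142578143), an imprinted noncoding RNA expressed from the maternal allele, had 171 counts in dCas9-OGA, 4713 in D242A, 4495 in WT and 2577 in Dnmt1-null. Its level was 6.85 cpm in dCas9-OGA against 190, 179 and 138 cpm, 25.9-fold lower than in D242A (log2 ratio −4.69, interval −5.02 to −4.57). The 3 WT replicates had a signal of 93.7, 92.5 and 79.4. For H19, as for Dnmt3a, dCas9-OGA was low and the other 3 libraries lay close together.

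Some of the naive pluripotency list was higher in dCas9-OGA. Of 15 genes compared, 6 were at least 2-fold higher, beside 4.80% of all genes, 1 was lower and 8 were within 2-fold. The median log2 ratio was 0.85, beside 0.02 for all genes. The 6 include the marker Tfcp2l1, and the list was chosen with earlier results of these data known. An excess over all genes may thus be partly built in. Set against the WT library, the same 15 genes had a median of 0.42 in dCas9-OGA and −0.30 in D242A. These ratios share libraries with the main comparison and are given only to place each population. After each chromosome's median was subtracted, the list's median was 0.73.

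The naive genes differed in the order of the libraries. Tbx3, a T-box factor that sustains self-renewal, had 6033 counts in dCas9-OGA, 823 in D242A, 6789 in WT and 1754 in Dnmt1-null, a log2 ratio of 2.85. Gbx2, a homeobox target of LIF signalling on chromosome 1, was at 51.7, 8.90, 48.1 and 18.6 cpm in the same order (2.47). For both genes D242A was the lowest of the 4 libraries, and dCas9-OGA was close to the single WT library. The WT replicates gave Tbx3 signals of 408, 408 and 425 but Gbx2 signals of 9.30, 10.6 and 11.1, so for Gbx2 they did not repeat the single library. Klf5, a Kruppel-like factor of the naive network, was at 481, 80.3, 160 and 110 cpm (2.58), so here dCas9-OGA lay above the single WT library and D242A below it. Klf5 lies at 99298691 to 99315036 of chromosome 14, within the segment whose median was 1.59. Prdm14 on chromosome 1, a repressor of the DNA methyltransferase genes in ES cells, was at 30.1 cpm against 13.1 in D242A, 21.0 in WT and 27.9 in Dnmt1-null (1.18). Its ratio was 0.85 after the median of chromosome 1 was subtracted.

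Not every naive gene was higher. Dppa3 (Stella), a maternal-effect protein that limits DNA methylation and is expressed in a subset of ES cells, had 32 counts in dCas9-OGA, 729 in D242A, 250 in WT and 1432 in Dnmt1-null. That was 16.8-fold lower in dCas9-OGA, with a log2 ratio of −4.07. The signals of the WT replicates were also low, at 1.38, 1.74 and 1.40. Klf2 on chromosome 8 was at 200 cpm against 377 (−0.91), and Fbxo15 at 54.4 cpm against 106 (−0.96). Klf2, Fbxo15 and Klf4 were chosen after their values were seen. Klf4, at 314 cpm in dCas9-OGA, 194 in D242A and 399 in WT, had a ratio of 0.70. The list thus held members at both ends of the range.

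For this and every later list, 4.80% higher and 7.31% lower among all genes compared are the shares to set beside the counts. The lists and their members were chosen with earlier results of these data known, so an excess over these shares is not independent evidence. The core pluripotency list hardly differed. Of 11 genes, 1 was at least 2-fold higher, none was lower, and the median was 0.10. The higher gene was Dppa5a, an RNA-binding protein of undifferentiated cells, at 1168 cpm in dCas9-OGA, 480 in D242A, 780 in WT and 775 in Dnmt1-null (1.28). Summed over the list, the level was 5071 cpm in dCas9-OGA, 3903 in D242A, 5706 in WT and 4397 in Dnmt1-null.

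**Figure D2:**
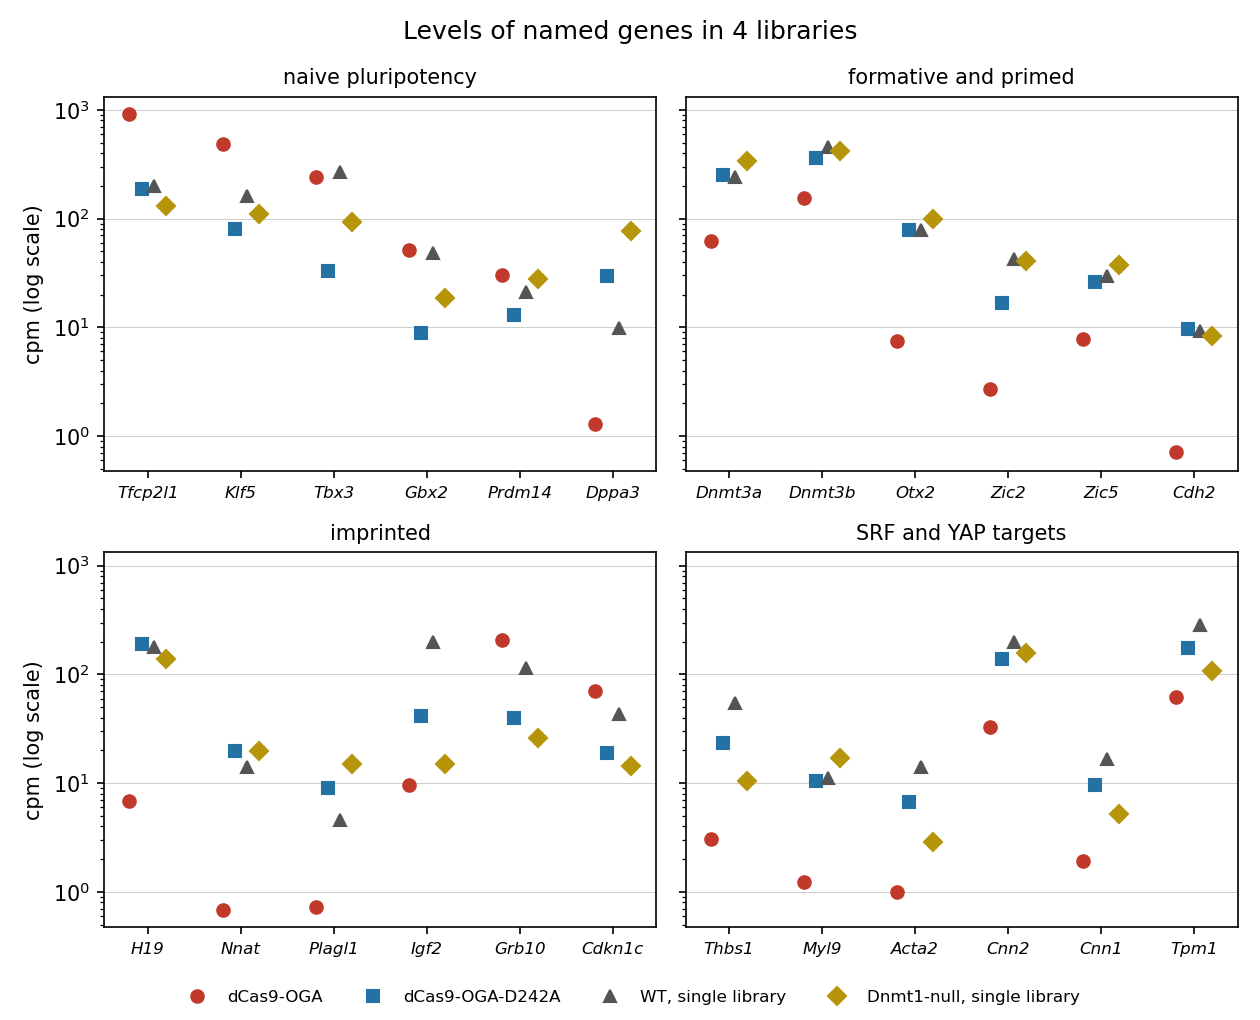
Levels of 24 genes from 4 lists in the dCas9-OGA, dCas9-OGA-D242A, single WT and single Dnmt1-null libraries, in cpm on a log axis, with 1 point per library and no error bars because each has 1 library. Dnmt3a, Otx2, Cdh2, H19 and Nnat are low in dCas9-OGA and close together in the other 3 libraries, whereas Tbx3 and Gbx2 are close in dCas9-OGA and the single WT library and lowest in dCas9-OGA-D242A.

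Most of the formative and primed epiblast list was lower in dCas9-OGA. Of 11 genes compared, 7, among them the marker Dnmt3a, were at least 2-fold lower, beside 7.31% of all genes, and 4 were within 2-fold. None was higher, and the median was −1.38. Against WT the same genes had a median of −1.95 in dCas9-OGA and −0.47 in D242A. Otx2, Sall2, Zic2 and Zic5 are all on chromosome 14, and Zic2 and Zic5 lie beyond 80 Mb, where most genes were higher. Without chromosomes 1, 8, 11, 14 and Y the median of the remaining list members was −0.50.

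Otx2, a homeobox factor that drives the exit from naive pluripotency, had 188 counts in dCas9-OGA, 1953 in D242A, 1972 in WT and 1838 in Dnmt1-null. That is 7.53 cpm against 78.7, 78.6 and 98.3 cpm, 9.85-fold lower than in D242A (−3.30). Cdh2, which encodes N-cadherin, had 18 counts against 238, 234 and 157 (−3.05). In both cases D242A was close to the single WT library, but the WT replicates gave other levels, with Otx2 signals of 26.1, 26.0 and 30.0 and Cdh2 signals of 49.6, 53.3 and 43.9. The zinc finger factor Zic2 was at 2.72 cpm in dCas9-OGA, 16.9 in D242A, 42.1 in WT and 40.7 in Dnmt1-null (−2.43), and its neighbour Zic5 at 7.77, 26.0, 29.5 and 37.8 cpm (−1.68). Sall2 was at 5.45, 15.0, 31.7 and 17.3 cpm (−1.38). These 3 genes were lowest in dCas9-OGA too, but Zic2 and Sall2 were also below the single WT library in D242A.

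Enzymes of DNA methylation did not share a direction. Of 8 compared, 2 were lower, 1 was higher and the median was 0.28. Beside Dnmt3a, its paralogue Dnmt3b was at 156 cpm in dCas9-OGA, 358 in D242A, 452 in WT and 422 in Dnmt1-null (−1.20). Tet2, which oxidizes 5-methylcytosine, was at 196 cpm against 53.4, 30.8 and 79.4 cpm (1.87). Among these 4 libraries the de novo methyltransferases were lowest, and Tet2 highest, in dCas9-OGA. The WT replicates gave signals of 124, 125 and 133 for Dnmt3b and 170, 177 and 184 for Tet2, so the contrast with the single WT library was not repeated by them. Dnmt1, the maintenance methyltransferase gene, was at 546 and 376 cpm in dCas9-OGA and D242A (0.54), 455 in WT and 62.9 in Dnmt1-null. DNA methylation itself was not analysed here.

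Imprinted genes, which are expressed from 1 parental allele, differed in both directions. Of 27 compared, 9, among them the marker H19, were at least 2-fold lower, 2 were higher and 16 were within 2-fold. The list's median was −0.55. Against WT the median of these genes was 0.22 in dCas9-OGA and 0.39 in D242A. After H19 the lowest ratio was that of Nnat, a paternally expressed proteolipid gene, with 17 counts in dCas9-OGA, 496 in D242A, 352 in WT and 371 in Dnmt1-null (−4.12). Plagl1, a paternally expressed zinc finger gene, had 18, 225, 114 and 279 counts (−2.97). As with H19, dCas9-OGA was the lowest library for both.

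Igf2, the growth factor gene next to H19 that is expressed from the paternal allele, had 240 counts in dCas9-OGA, 1030 in D242A, 4957 in WT and 280 in Dnmt1-null (−2.05). H19 and Igf2, which are reciprocally imprinted, were thus both lower in dCas9-OGA than in D242A. Further along chromosome 7, Cdkn1c, a maternally expressed inhibitor of cyclin-dependent kinases, was at 70.3 cpm against 18.9, 43.6 and 14.3 cpm (1.87). Grb10, an adaptor of insulin receptor signalling on chromosome 11, was at 209 cpm in dCas9-OGA, 39.4 in D242A, 114 in WT and 26.3 in Dnmt1-null (2.39). Grb10 was higher although the median of its chromosome was lower. The other lower members, Impact, Dlk1, Snrpn, Kcnq1ot1 and Mest, had ratios between −1.40 and −1.01. Kcnq1ot1 is antisense to Kcnq1, and the strand setting of the counting is not stated, so its reads are uncertain. Which allele was expressed cannot be read from these counts.

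Of the targets of the actin-responsive factor SRF and of the Hippo effector YAP, several contractile genes were lower in dCas9-OGA. Many of them encode parts of the contractile cytoskeleton or its extracellular contacts. Of 13 compared, 7 were at least 2-fold lower, none was higher and the median was −1.11. Set against WT the median was −2.18 in dCas9-OGA and −0.70 in D242A. Thbs1, a matrix glycoprotein, was at 3.05 cpm in dCas9-OGA, 23.3 in D242A, 54.1 in WT and 10.5 in Dnmt1-null (−2.75). The myosin light chain gene Myl9 was at 1.24, 10.5, 11.1 and 17.1 cpm (−2.65), and the smooth muscle actin gene Acta2 at 1.00, 6.65, 14.2 and 2.89 cpm (−2.25). In each of these the dCas9-OGA library was the lowest of the 4. The WT replicates gave Thbs1 signals of 863, 1004 and 727, far above the single WT library.

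In the calponins, which bind actin, dCas9-OGA was again the lowest. Cnn2 was at 32.5 cpm against 139, 198 and 158 cpm (−2.08), and Cnn1 at 1.92 against 9.63, 16.7 and 5.19 cpm (−2.06). Tropomyosin 1 (Tpm1) was at 62.4 against 175, 285 and 107 cpm (−1.48). Not all cytoskeletal members followed, since vinculin (Vcl) had a ratio of −0.26 and filamin A (Flna) of −0.37, and Srf itself was at 65.4 and 114 cpm (−0.80). Of targets of YAP, Cyr61 was lower (−1.11), while Ctgf (−0.78) and Amotl2 (0.11) were within 2-fold. These 6 genes were chosen after their values were seen. The median was −0.91 with 5 cpm added in place of 0.5.

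Because 7 of the 13 genes were lower, promoters of the list are shown with the CArG box, the 10-base element that SRF binds. Promoter sequences from RefSeq (GRCm38.p6) were found for 10 of the 13 genes, and for 9130 of all the genes compared. Within 250 bases before the transcript start, 4 of the 10 had an exact CArG box and 7 had one with up to 1 mismatch, against 1.34% and 17.5% of the 9130. The list was assembled from targets of SRF and YAP, so this excess was built in and does not bear on the contrast. Of the 5 lower members with a promoter, 2 had an exact box. The element reads the same on both strands, and matches may overlap other motifs. Among the 660 lower genes with a promoter, 2.42% had an exact match and 21.8% a match with up to 1 mismatch, and among the 425 higher genes 1.18% and 21.6%. The GGAATG element of the TEAD factors, partners of YAP, was found on either strand in 5 of the 10 and in 12.7% of all, with 15.6% of the lower and 16.2% of the higher genes. A match is a description of the sequence and does not show binding. The stretches below run from 20 bases before the first match to 20 bases after the last, 5′ to 3′ toward the gene, with matches of up to 1 mismatch in capitals. They come from Cnn2 (chr10:79988524-79988573, plus strand), Myl9 (chr2:156775283-156775394, plus strand), Acta2 (chr19:34255378-34255477, minus strand), and, for genes that differed less, Srf (chr17:46556172-46556264, minus strand) and Vcl (chr14:20929151-20929200, plus strand).
Cnn2: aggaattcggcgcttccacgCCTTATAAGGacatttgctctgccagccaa
Myl9: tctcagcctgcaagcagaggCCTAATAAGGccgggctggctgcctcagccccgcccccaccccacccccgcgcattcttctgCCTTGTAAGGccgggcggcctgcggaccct
Acta2: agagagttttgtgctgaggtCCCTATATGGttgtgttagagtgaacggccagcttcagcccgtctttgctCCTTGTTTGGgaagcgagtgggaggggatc
Srf: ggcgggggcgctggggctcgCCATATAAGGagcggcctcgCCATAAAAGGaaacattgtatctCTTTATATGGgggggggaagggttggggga
Vcl: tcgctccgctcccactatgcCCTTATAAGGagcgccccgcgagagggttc
Cnn2, with a log2 ratio of −2.08, and Vcl, with −0.26, each held an exact box of the same letters. These boxes lay 56 and 227 bases before the start. Whether the element bears on the difference was not tested.

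WNT target genes were mostly lower. Of 8 compared, 5 were at least 2-fold lower and 1 was higher, with a median of −1.11. However, 6 of the 8 lie on the shifted chromosomes, and after each chromosome's median was subtracted the list's median was −0.67. Tcf7, a nuclear partner of beta-catenin on chromosome 11, was at 66.4 cpm in dCas9-OGA, 188 in D242A, 116 in WT and 185 in Dnmt1-null (−1.50). The feedback inhibitors Axin2, Notum and Znrf3, also on chromosome 11, had ratios of −1.22, −1.19 and −1.03, and Nkd1 on chromosome 8 of −1.70. With the medians of those chromosomes subtracted, Tcf7 and Nkd1 stayed below −1 (−1.06 and −1.25), while Axin2, Notum and Znrf3 were at −0.77, −0.75 and −0.59. Cdx1, a homeobox gene, went the other way, with 104 counts in dCas9-OGA, 4 in D242A, 96 in WT and 11 in Dnmt1-null (2.82).

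Of 12 genes of the Nodal, BMP and Id list, 2 were lower and 2 higher, and the median was −0.19. Lefty1, a secreted Nodal antagonist on chromosome 1, was at 43.7 cpm in dCas9-OGA, 188 in D242A, 47.3 in WT and 233 in Dnmt1-null (−2.10). Its paralogue Lefty2, in the same cluster, was at 76.7, 175, 44.9 and 393 cpm (−1.19). The WT replicates gave Lefty1 signals of 163, 167 and 167 and Lefty2 signals of 103, 100 and 104, so they did not repeat the low single WT library. Bmp4 on chromosome 14 was at 85.5 cpm against 22.7, 66.5 and 20.8 cpm (1.89), and the BMP target Id1 at 162 against 71.2, 254 and 82.1 cpm (1.18). The BMP targets Id2 and Id3 did not follow Id1, with ratios of −0.28 and −0.37, and Nodal itself, at 98.8 and 94.6 cpm, had a ratio of 0.06.

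Response genes of FGF and ERK signalling were split, with 2 of 15 lower, 2 higher and a median of −0.21. The sign of this median was not stable, since it was 0.27 with a minimum of 500 counts and 0.03 without chromosomes 1, 8, 11, 14 and Y. Dusp4, a phosphatase of ERK on chromosome 8, had 239 counts in dCas9-OGA, 1483 in D242A, 1330 in WT and 446 in Dnmt1-null (−2.58). The immediate early gene Egr1 was at 14.3, 54.7, 27.1 and 76.1 cpm (−1.90). Etv4 on chromosome 11 was instead at 272 cpm against 115 in D242A, 212 in WT and 158 in Dnmt1-null (1.24), and Spry2, in the distal part of chromosome 14, at 169 against 68.5, 176 and 57.2 cpm (1.29). The LIF-STAT3 list had 2 of 10 genes higher, Tfcp2l1 and Gbx2, and a median of 0.10. That median was 0.32 after each chromosome's median was subtracted, and 5 of the 10 genes lie on the shifted chromosomes. Socs3 on chromosome 11, the feedback inhibitor of that pathway, was at 406 and 377 cpm (0.11). Id2, Id3, Nodal and Socs3 were named after their values were seen.

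**Figure D3:**
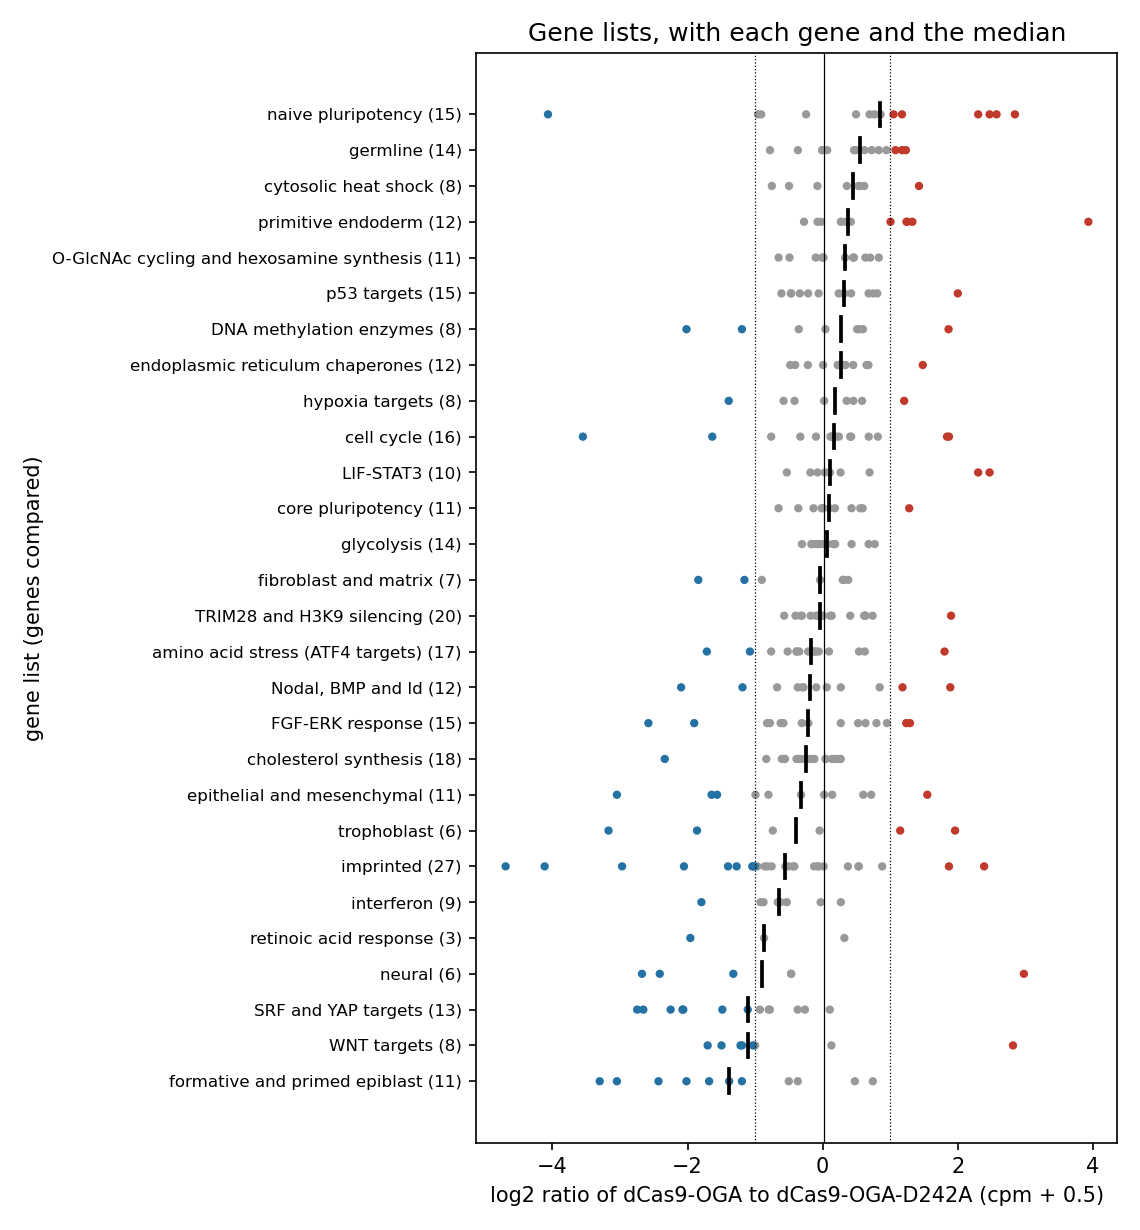
Each point is the log2 ratio of dCas9-OGA to dCas9-OGA-D242A for 1 gene of a list, the short black bars are list medians, the solid line is the median of all genes compared (0.02) and the dotted lines mark 2-fold. Lists with at least 3 genes compared are drawn, apart from the Y-linked list, and run from formative and primed epiblast genes (median −1.38) at the bottom to naive pluripotency genes (0.85) at the top.

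Several markers of other cell types differed. For primitive endoderm, the extraembryonic lineage next to the epiblast, 5 of 12 genes compared were at least 2-fold higher, none was lower, and the median was 0.38. It was 0.83 after each chromosome's median was subtracted, and 1.01 without chromosomes 1, 8, 11, 14 and Y, where 5 of the 12 lie. Sox7 on chromosome 14 had 240 counts in dCas9-OGA, 4 in D242A, 147 in WT and 53 in Dnmt1-null (3.94). The endoderm factor Gata6 had 142, 52, 222 and 54 counts (1.25), the receptor gene Pdgfra 105, 37, 111 and 32 counts (1.24) and the endocytic receptor gene Cubn 264, 97, 130 and 110 counts (1.33). These 4 genes were lower in D242A than in dCas9-OGA and the single WT library. The WT replicates gave signals of 42.8, 43.3 and 39.1 for Gata6, 23.0, 24.7 and 24.0 for Pdgfra, and 19.7, 19.8 and 22.0 for Cubn. In dCas9-OGA these genes were at 5.69, 4.21 and 10.6 cpm, so both populations lay below the replicates. Gata4 on chromosome 14 differed less between the populations, with 167 and 135 counts (0.28). Sox17 on chromosome 1, with 54 and 26, was under the minimum. The whole list summed to 1164 cpm in dCas9-OGA, 910 in D242A, 1831 in WT and 953 in Dnmt1-null, with Sparc on chromosome 11 the member with the most counts. Lama1, a laminin chain, had 6046 and 2990 counts (1.01). With 5 cpm added in place of 0.5, Gata6, Pdgfra, Cubn and Lama1 came within 2-fold. In bulk RNA, fewer cells of a type and less RNA per cell cannot be told apart.

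Of 6 neural genes compared, 3 were lower, 1 was higher and 2 were within 2-fold, with a median of −0.89. The neuronal tubulin gene Tubb3 on chromosome 8 was at 23.0 cpm in dCas9-OGA, 125 in D242A, 144 in WT and 212 in Dnmt1-null (−2.41). Pax6 had 9, 124, 140 and 234 counts (−2.67), and Nes 384, 974, 1339 and 886 counts (−1.32). Sox1, also on chromosome 8, had 332 counts in dCas9-OGA against 31, 70 and 31 counts (2.98). Sox1 thus stood highest where Pax6, Tubb3 and Nes stood lowest. The list summed to 76.0 cpm in dCas9-OGA, 204 in D242A, 239 in WT and 294 in Dnmt1-null, with Tubb3 holding the most counts.

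Of the trophoblast list, 2 of 6 genes were higher and 2 lower. Tead4 was at 88.1 cpm against 22.2 in D242A, 56.6 in WT and 28.5 in Dnmt1-null (1.96), and Ets2 at 91.9 against 41.2, 63.7 and 37.6 cpm (1.15). The keratin gene Krt18 was at 17.2, 63.7, 188 and 25.9 cpm (−1.86), and Hand1 on chromosome 11 had 7, 162, 589 and 72 counts (−3.17). The defining markers Cdx2, Elf5 and Gata3 had 7, 1 and 8 counts in dCas9-OGA and 3, 5 and 27 in D242A, so these markers were near 0 in both. The list summed to 303 cpm in dCas9-OGA, 277 in D242A, 666 in WT and 142 in Dnmt1-null. Of the 11 primitive streak and mesoderm genes, Eomes alone passed the minimum, with 123 and 64 counts (0.82). Its companions T, Mixl1 (chromosome 1) and Mesp1 had 7, 6 and 6 counts in dCas9-OGA and 4, 16 and 6 in D242A, and Wnt3 on chromosome 11 and Kdr, chosen after their values were seen, had 9 and 20 against 77 and 73. The list summed to 7.69 cpm in dCas9-OGA, 12.1 in D242A, 38.2 in WT and 22.5 in Dnmt1-null.

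Fibroblast genes were examined as a sign of feeder cells. Of 7 compared, 2 were lower and none was higher, and the median was −0.04. It was −0.47 without chromosomes 1, 8, 11, 14 and Y and 0.14 with a minimum of 500 counts. Col1a1 on chromosome 11 had 249 counts in dCas9-OGA, 568 in D242A, 364 in WT and 125 in Dnmt1-null (−1.16), and Col1a2 had 64, 260, 163 and 30 counts (−1.84). Thy1 had 567 and 579 counts (−0.04), Col3a1 on chromosome 1 103 and 81 (0.30), and Postn 12 and 17. The WT replicates held far more of such transcripts, with Col1a2 signals of 397, 477 and 329 and Col3a1 signals of 235, 260 and 185. The list summed to 1150 cpm in dCas9-OGA, 917 in D242A, 611 in WT and 890 in Dnmt1-null, most of it from Fn1 on chromosome 1, which ES cells also express. The part of such cells in the lower contractile genes was not tested. Among epithelial and mesenchymal genes, 3 of 11 were lower and 1 higher, with a median of −0.32, which was 0.02 with a minimum of 500 counts and −0.15 without chromosomes 1, 8, 11, 14 and Y. The lower genes were Cdh2, the tight junction gene Ocln (105 against 353 counts, −1.64) and the repressor gene Zeb2 (21 against 86 counts, −1.56), and the higher gene was the adhesion gene Ncam1 (613 against 200 counts, 1.55).

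Germline genes, many of which are silenced by promoter methylation in somatic and ES cells, had a median of 0.56 over 14 compared, with 3 higher and none lower. Piwil2 on chromosome 14, a PIWI protein that guides transposon silencing, was at 57.1 cpm in dCas9-OGA, 26.8 in D242A, 49.4 in WT and 43.8 in Dnmt1-null (1.08). Stk31 had 265, 105, 88 and 262 counts (1.23), and Taf7l, on chromosome X, 93, 34, 142 and 83 counts (1.18). D242A was lower than dCas9-OGA and Dnmt1-null in each. Stk31 had signals of 31.6, 25.8 and 29.4 in the WT replicates. Summed over the list, dCas9-OGA had 274 cpm, D242A 219, WT 435 and Dnmt1-null 570.

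Genes of the modification that OGA removes differed less than 2-fold. Of 11 genes of O-GlcNAc cycling and hexosamine synthesis compared, none was at least 2-fold higher or lower, with a median of 0.33. Ogt, on chromosome X, was at 178 cpm in dCas9-OGA, 109 in D242A, 69.8 in WT and 193 in Dnmt1-null (log2 ratio 0.71, interval 0.64 to 0.78). The WT replicates gave Ogt signals of 115, 110 and 122, near D242A, so they did not repeat the low single WT library. Mgea5, the endogenous hydrolase gene, was at 171, 169, 108 and 94.4 cpm (0.01, interval −0.05 to 0.08). Gnpda1, a glucosamine-6-phosphate deaminase, had the largest ratio of the list at 0.83. The bacterial transgene has no mouse gene row, so its own expression was not measured here.

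Of 20 genes of TRIM28 and H3K9 silencing, 1 was higher, none was lower and the median was −0.04. Trim28, the corepressor that KRAB zinc finger proteins recruit, had 56831 and 58177 counts (−0.04), and the histone methyltransferase gene Setdb1 had 3527 and 3487 (0.01). The higher gene was Zfp57, the KRAB zinc finger protein that holds TRIM28 at imprinting control regions, at 420 cpm in dCas9-OGA, 112 in D242A, 347 in WT and 282 in Dnmt1-null (1.90). D242A was therefore the lowest of the 4 libraries for Zfp57. Trim28 and Setdb1 were named after their values were seen.

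Cell cycle genes had a median of 0.17 over 16 compared, with 2 higher and 2 lower, beside 4.80% and 7.31% of all genes. Ccnd3, a D-type cyclin, was at 829 cpm in dCas9-OGA, 231 in D242A, 536 in WT and 318 in Dnmt1-null (1.84). The neighbouring inhibitor genes Cdkn2a and Cdkn2b were both lower, with 64 against 879 counts (−3.55) and 67 against 233 counts (−1.63). In WT they had 541 and 236 counts and in Dnmt1-null 615 and 143. The dCas9-OGA library was thus the lowest for both inhibitors, while Cdkn1c, described above, was highest there. Among 15 p53 targets 1 was higher, Pmaip1 (Noxa), at 28.1 cpm against 6.65, 29.6 and 11.9 cpm (2.00), and the list's median was 0.31.

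Stress and metabolic lists differed little. Amino acid stress targets of ATF4 had a median of −0.18 over 17 genes, with the cystine transporter gene Slc7a11 (−1.71) and Atf3 on chromosome 1 (−1.08) lower and Cth, an enzyme of cysteine synthesis, higher (1.81). Endoplasmic reticulum chaperones had a median of 0.28 over 12 genes, and the higher gene, Dnajc3 (1.48), lies in the distal part of chromosome 14. Of 8 cytosolic heat shock genes, Hspb1 was higher, at 310 cpm against 115 in D242A, 383 in WT and 257 in Dnmt1-null (1.43), beside a median of 0.44. None of 14 glycolysis genes differed 2-fold, and their median was 0.06, with Hk2 at 0.77 and Slc2a3 at 0.68. Gapdh, which has many processed pseudogenes, had 266 and 256 counts, so its value and those of other genes with close copies are uncertain. Hypoxia targets had a median of 0.19 over 8 genes, with Vegfa higher (1.21) and Ankrd37 on chromosome 8 lower (−1.39).

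Cholesterol synthesis genes had a median of −0.24 over 18 compared. Against WT the list had medians of 1.16 in dCas9-OGA and 1.23 in D242A, so both populations stood above that library by a like amount. Interferon response genes had a median of −0.65 over 9 compared, with Ifit2 lower at 23 against 110 counts (−1.79). The other 9 of its 18 members were under the minimum. Mitochondrially encoded genes had no counts in any of the 4 libraries, so they could not be compared.

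Apart from the lists, the 10 protein-coding genes with the largest ratios were led by Nkx6-3, a homeobox gene on chromosome 8, at 86.6 cpm in dCas9-OGA, 3.02 in D242A, 4.90 in WT and 0.214 in Dnmt1-null (4.63). Inhbb on chromosome 1, which encodes the activin beta-B subunit, was at 308, 23.0, 49.8 and 10.1 cpm (3.71). Tgm2, a transglutaminase, had 5779, 515, 768 and 142 counts (3.45). For these 3 genes dCas9-OGA was several times above each of the other 3 libraries. Lims2 (3.76), a LIM protein of cell adhesions, and Zbtb7c (3.49) were likewise highest in dCas9-OGA, with WT levels of 3.15 and 5.62 cpm against 28.0 and 44.9 cpm in dCas9-OGA.

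In Wnt6, Mras and Pou4f2 D242A was the lowest library. Wnt6 on chromosome 1 was at 27.2 cpm in dCas9-OGA, 1.81 in D242A, 18.4 in WT and 5.56 in Dnmt1-null (3.58). Mras, a small GTPase, had 3456, 274, 1283 and 398 counts (3.59), and Pou4f2 on chromosome 8 was at 28.2, 1.73, 10.0 and 7.06 cpm (3.69). In these, the single WT library lay between the 2 populations, as for Sox7. Tex13 on chromosome X had 160 counts in dCas9-OGA and 3 in D242A, with 4 in WT and 2 in Dnmt1-null (3.48, interval 4.16 to 8.02 without the added 0.5).

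The 10 smallest ratios included 4 Y-linked genes. Ddx3y had 10 counts in dCas9-OGA, 1333 in D242A, 55 in WT and 1057 in Dnmt1-null (−5.91). Uty had 3, 526, 20 and 425 counts (−5.13, interval −9.74 to −5.91), Eif2s3y 68, 1266, 110 and 1117 (−4.00) and Uba1y 12, 393, 37 and 238 (−4.06). The Y-linked genes thus followed the split of the libraries given above. Of the autosomal genes, Stmn2, a regulator of microtubules in neurons, was at 8.62 cpm in dCas9-OGA, 342 in D242A, 181 in WT and 297 in Dnmt1-null (−5.23). Aass, an enzyme of lysine breakdown, had 15 counts against 690, 182 and 916 (−4.68). Pdcl2 had 2 counts against 207, 100 and 77 (−3.93, interval −9.76 to −4.83). Each of these 3 was lowest in dCas9-OGA, with the single WT library between the 2 populations. The WT replicates gave Aass signals of 28.1, 25.5 and 26.9, near the 27.8 cpm of D242A rather than between. For Pdcl2 they gave 6.88, 5.64 and 6.36, between 0.0801 cpm in dCas9-OGA and 8.34 cpm in D242A.

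Genes with many reads were also among those at least 2-fold different. The 5 higher genes with the most counts were Ipo5, an importin in the distal part of chromosome 14, at 3648 cpm in dCas9-OGA against 1214 in D242A, 692 in WT and 1044 in Dnmt1-null (1.59), then Lamc1 on chromosome 1 (1.32), Dppa5a (1.28), Apoe (1.32) and Tfcp2l1. The ratio of Ipo5 was that of the median gene of its segment. Apoe, a lipid carrier, was at 1124 cpm against 451, 245 and 354 cpm, and the laminin chain gene Lamc1 at 1383 against 555, 553 and 447 cpm. The 5 lower genes with the most counts were Gm26917, Klhl13, Trh, Sqstm1 and Usp28. Klhl13, an X-linked adaptor of a ubiquitin ligase, was at 49.8 cpm in dCas9-OGA, 726 in D242A, 152 in WT and 463 in Dnmt1-null (−3.85). Trh, a neuropeptide precursor gene, was at 104, 515, 215 and 780 cpm (−2.30). In both of these dCas9-OGA was the lowest of the 4 libraries, and D242A and Dnmt1-null were above the single WT library. The WT replicates gave Klhl13 signals of 67.0, 60.5 and 67.6, near dCas9-OGA and far below D242A. Gm26917, an unnamed noncoding gene on chromosome 17, was at 595, 1251, 622 and 551 cpm (−1.07), with signals of 1375, 1238 and 1511 in the WT replicates, which did not repeat the low single WT library. The autophagy receptor gene Sqstm1 on chromosome 11 (−1.03) and the deubiquitinase gene Usp28 (−1.01) were near the 2-fold limit.

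The promoters of the genes that differed had fewer CpG dinucleotides than those of genes in general. Within 250 bases before the start, the median number of CpG was 15 for the 425 higher genes, 14 for the 660 lower genes and 18 for the 9130 genes compared with a promoter, taking each gene's richest promoter. Both directions shared this, so it did not separate higher from lower genes. The AP-1 element TGANTCA was found on either strand in 8.48% of the lower genes, 5.88% of the higher genes and 5.01% of all, and the STAT element in 7.58%, 6.59% and 6.76%. These shares are descriptions without a test.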

How the data were processed

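RNA was measured by RNA-seq in ES cells with dCas9-OGA, dCas9-OGA-D242A, WT and Dnmt1-null, with 1 library each in the joint table. The authors mapped reads to mm10 and deposited whole counts per Ensembl v87 gene from featureCounts 1.5.0. The study's methods name HISAT2 2.1.0, while the submitters' processing notes for these libraries name TopHat2 2.0.11 and Bowtie2 2.2.2. The library kit is given differently in the labels and the methods, and the strand setting of the counting is not given in the sources used here. In the 3 WT replicate files header and columns disagree, and values were read from column 3. For these replicates the signal the authors deposited is a scaled value, and its smallest step gave back whole reads (29286057, 37112247 and 26846275), and every value was whole within 0.05 of a read.

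Counts were divided by the library's total gene counts and compared as log2(cpm + 0.5) with a minimum of 100 counts over the pair and a fold of 2. Symbols came from the first WT replicate's file (11990 genes) or GENCODE vM21 (729), which also gave positions on GRCm38. The files of single samples held the same counts as the joint table. Computations used NumPy 2.4.6, pandas 2.3.3, matplotlib 3.10.9 and SciPy 1.17.1 on Python 3.11.15, with R 4.3.3, edgeR 4.0.16 and DESeq2 1.42.0 for other scalings, and were tested on simulated data. Named genes were the 3 markers, Ogt and Mgea5, up to 6 members of each of 32 lists that differed 2-fold (otherwise up to 2 with the largest ratio), the 10 largest and 10 smallest ratios of named protein-coding genes, and the 5 genes with the most counts in each direction. Markers of cell types were set in the plan, and other genes, such as Dnmt1, Gapdh, Impact, Dlk1 and the members with the most counts of a list, were chosen after their values were seen. Members and lists were chosen with earlier results of these data known.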

Additional observations from a re-analysis of the deposited data

How the results depend on the processing

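No paired analysis was possible because each condition compared has 1 library. Counts of higher and lower genes moved by over 1.5 times in 4 settings, each by its own construction: with 5 cpm added they were 313 and 373, with a minimum of 500 counts 389 and 409, with a fold of 1.5 they were 1644 and 1971, and with a fold of 4 they were 93 and 183. With edgeR's TMM factors (621 and 918), DESeq2 size factors (619 and 920), the median set to 0 (578 and 965), no pseudocount (685 and 1040), a minimum of 20 counts (747 and 1379), protein-coding genes (571 and 892), each chromosome's median set to 0 (532 and 868), chromosomes 1, 8, 11, 14 and Y left out (439 and 621) or a trend on length and GC removed (679 and 855) they stayed within that range, and lower genes outnumbered higher ones throughout. Of the named genes, Eif2s3y and Uba1y changed sign, to 0.60 and 0.54, when the median of chromosome Y, which has 4 genes compared, was set to 0. Mgea5, close to 0 throughout, also changed sign, from 0.01 to −0.04 with its chromosome's median set to 0. Of 316 alternative list medians 42 lay outside the median counting interval of the list's genes, and 4 lists changed sign: FGF-ERK response (−0.21 to 0.27), epithelial and mesenchymal (−0.32 to 0.02) and fibroblast (−0.04 to 0.14) with a minimum of 500 counts, and TRIM28 and H3K9 silencing (−0.04 to 0.04) with the trend removed. The 42 include unchanged values of the Y-linked list. The main median of that list, −5.13, already lay outside, since the interval leaves out the added 0.5. The 4 list medians at 1 or beyond all came inside 1 under some alternative. Of 102 named genes past 2-fold, 29 came within 2-fold under some alternative, 23 of them with 5 cpm added. With 1 library each, depth limits genes with few reads, and the spread between cultures is unknown.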
